A study of Homo sapiens with 12 samples.

Results

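The subject of this account is the response that 2 inhibitors of histone-methylation enzymes have in common. GSK126 inhibits EZH2, the methyltransferase of Polycomb repressive complex 2 (PRC2), and S2101 inhibits LSD1, a histone lysine demethylase encoded by KDM1A. The 6 libraries treated with either compound were taken as 1 group and set against 3 untreated libraries, 9 of the 12 libraries of the series, by the treatment in each library's label. Each compound was given to 3 human carcinoma lines: MHCC97H, derived from hepatocellular carcinoma, A549, from lung adenocarcinoma, and HCT116, from colorectal carcinoma. GSK126 was used at 50 µM and S2101 at 100 µM, with 1 library per line and compound and 1 untreated library per line. The other 3 libraries, from cells given the histone deacetylase inhibitor trichostatin A (TSA) at 1 µM, served only for comparison. Poly(A) RNA was sequenced from cells grown in DMEM (A549 and MHCC97H) or RPMI (HCT116), so culture medium is confounded with line. Neither the duration of treatment nor a vehicle control is stated in the sources used here. The series set out to find genes that become visible after epigenetic treatment.

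PRC2 places methyl groups on lysine 27 of histone H3 and holds developmental genes silent, whereas LSD1 removes methyl groups from lysine 4 of histone H3, often within corepressor complexes. Cholesterol synthesis runs from acetyl-CoA through mevalonate, squalene and lanosterol to cholesterol, and its genes share a control: the SREBP transcription factors are kept in the endoplasmic reticulum by SCAP and INSIG proteins when sterols are plentiful and are released to the nucleus when sterols run low. Genes of DNA replication are driven by E2F factors at the start of S phase, and genes of mitosis by the DREAM and MuvB complexes with B-MYB and FOXM1 in G2.

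The libraries held 14468304 to 19061367 gene counts, and a floor of 3 reads was worth 0.157 to 0.207 CPM, counts as a share of the library, which covers counting error only. Defining markers of the labelled tissues were partly absent. Untreated MHCC97H had 0.541 CPM of ALB and 0 of TTR but 1118 CPM of the intestinal keratin KRT20. Other members of these marker lists ran the other way there. The hepatocyte list had 56.4 CPM of HNF4A and 14.7 of APOB, and the intestinal list 0.203 of EPCAM. At least 1 CPM was reached by 5 of 8 hepatocyte and 5 of 7 intestinal markers. Untreated A549 had 0 reads of the lung factor NKX2-1. Marker lists of leukocytes (12.6 to 20.3 CPM summed over 6 genes) and fibroblasts (6.19 to 38.1 CPM) were low in all 9 libraries, and CD3E was at 0 in each. Of the treated libraries, A549 under GSK126 departed furthest, with 1930 genes over 2-fold from untreated A549, against 184 to 710 in the other 5. The A549 S2101 library stood apart in another way. Over 39 genes with 0 reads in untreated A549 and at least 5 CPM under TSA, it held a read of all 39 and A549 under GSK126 held a read of 36. The summed level of these genes was 7.99% of that of the A549 TSA library under S2101 and 2.64% under GSK126, and the median per gene was 8.15 and 2.41%. The same sums came to 0.98% under GSK126 and 0.851% under S2101 in MHCC97H, over 45 genes, and to 4.64 and 1.28% in HCT116, over only 6 genes with medians of 0.643 and 0.908%. Counts of the gene lists without the A549 S2101 library are given where they differ by more than 1 member, and in the other lists the count in either direction moved by at most 1. MALAT1, a nuclear non-coding RNA, took a larger share of the counts in every treated library, with 0.462% under GSK126, 0.488% under S2101 and 0.426% untreated in MHCC97H, 0.706, 0.504 and 0.295% in A549 and 0.573, 0.43 and 0.198% in HCT116. The part of RNA composition in the results below was not tested.

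With the compounds pooled and the cell line as a block, no gene passed the threshold of adjusted p under 0.05. The 12 genes with the lowest p included FDFT1 and TM7SF2 of cholesterol synthesis, beside ABCA3, LGALS4, EXD3 and others outside that pathway. Of 16201 genes tested with edgeR's quasi-likelihood test, 0 were called higher (0%) and 0 lower (0%), and the lowest adjusted p was 0.0518. At an unadjusted p under 0.05, 2132 genes were higher (13.2%) and 1970 lower (12.2%), 25.3% in both directions together, where the adjusted p reached 0.197. At an adjusted p under 0.1, 783 genes were higher and 787 lower. Relative to the untreated library of the same line, 2045 genes were higher (12.6%) and 2245 lower (13.9%) in all 6 treated libraries. The error of this test holds the difference between the compounds within a line as well as the spread of the response between lines, and both treated libraries of a line share 1 untreated library. With a term for each compound and the mean of both set against untreated, 510 genes were called higher (3.15%) and 615 lower (3.8%). The same form fitted on all 12 libraries, TSA included, called 0 higher and 0 lower. With the treated counts of each line summed, 518 were called higher (3.15%) and 354 lower (2.15%), and DESeq2 called 897 and 929. Counts below are therefore at unadjusted p under 0.05, read against 13.2 and 12.2% of all genes, and no single gene is claimed to pass the pooled test. The gene lists were chosen with earlier results of these data known, so their counts describe these libraries and are no independent test.

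**Figure D1:**
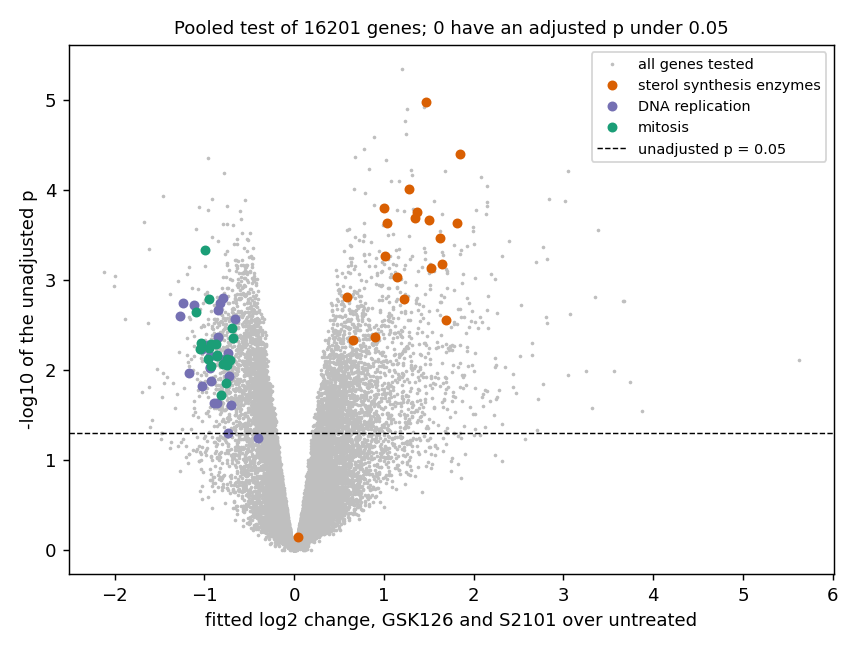
Each point is 1 of the 16201 genes tested, with the fitted log2 change (GSK126 and S2101 over untreated) on the horizontal axis and -log10 of the unadjusted p on the vertical axis; the dashed line marks the unadjusted threshold. The sterol synthesis enzymes lie to the right, with PMVK as the exception near 0, and the DNA replication and mitosis genes lie to the left.

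Enzymes of cholesterol synthesis were higher almost throughout. Of 20 listed enzymes, 19 were higher at unadjusted p under 0.05 and 0 lower, and the same count, 19, were higher in all 6 treated libraries. The median fitted log2 change of the list was 1.31, beside 0.03 over all genes tested. The count was also 19 without the A549 S2101 library, without the A549 GSK126 library and without A549 altogether. With a term for each compound 19 enzymes passed an adjusted p of 0.05, as they did with summed treated counts and in DESeq2. The list was chosen with earlier results known and each refit drew on the same libraries, so these repeats are no independent support. By library, the median log2 ratio of the list (CPM plus 1) was 1.28, 1.74 and 1.53 under GSK126 in MHCC97H, A549 and HCT116 and 0.73, 1.22 and 0.74 under S2101.

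Promoter sequences are shown for MSMO1 and INSIG1, which had some of the largest changes of the sterol genes. They are shown because CCAAT, the word bound by the factor NF-Y, was frequent in front of the synthesis enzymes. INSIG1 is not among those enzymes but in a list of sterol sensing, uptake and efflux genes, for which no share was computed. The sequences are the 250 bases before the RefSeq start (GRCh38.p14), 5′ to 3′ on the strand of the gene, with CCAAT or its reverse complement in capitals. MSMO1 lies on the plus strand (chr4:165327419-165327668) and INSIG1 likewise (chr7:155297628-155297877).
MSMO1: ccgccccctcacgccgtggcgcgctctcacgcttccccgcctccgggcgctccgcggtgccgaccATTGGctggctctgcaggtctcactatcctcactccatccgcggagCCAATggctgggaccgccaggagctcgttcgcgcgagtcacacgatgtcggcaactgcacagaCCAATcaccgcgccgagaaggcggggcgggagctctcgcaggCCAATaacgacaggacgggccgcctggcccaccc
INSIG1: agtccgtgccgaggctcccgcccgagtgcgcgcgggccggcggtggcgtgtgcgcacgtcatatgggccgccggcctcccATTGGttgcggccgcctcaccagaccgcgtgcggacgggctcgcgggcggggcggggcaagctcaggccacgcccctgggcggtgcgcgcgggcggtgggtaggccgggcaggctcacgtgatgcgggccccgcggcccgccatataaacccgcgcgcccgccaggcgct
MSMO1 held 4 matches, 185, 139, 76 and 34 bases before the start, and INSIG1 held 1, at 170 bases. Searched on both strands, CCAAT was found for 13 of 15 sterol enzymes in the RefSeq promoter table (86.7%) and for 37% of its 27305 genes. A gene was counted if any of its promoters held the word. It was also found in 15 of 21 promoters of DNA replication genes (71.4%) and 13 of 16 of mitosis genes (81.2%). The SREBP word TCACNCCAC was found for 0 of the 15 sterol enzymes and for 1.09% of all genes, which says only that these letters are not within 250 bases of those starts. None of the words searched contains another.

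The first steps, from acetyl-CoA towards farnesyl diphosphate, showed how the levels ran. HMGCS1, the HMG-CoA synthase, had 219, 918 and 699 CPM under GSK126 in MHCC97H, A549 and HCT116, 135, 571 and 238 under S2101 and 82.5, 289 and 66.3 untreated. Within each line both treated libraries were higher, and the fitted log2 change was 1.69 ± 0.42 (SE, adjusted p = 0.0786), with the largest ratio, 10.6-fold, in HCT116 under GSK126. ACAT2, which joins the first acetyl-CoA units, had a fitted change of 1.00 ± 0.17 and ratios of 1.39- to 2.74-fold. The mevalonate kinase MVK stood at 0.90 ± 0.24. PMVK, the phosphomevalonate kinase and next enzyme in line, was the exception of the pathway: it had 40.7, 33.6 and 26.6 CPM under GSK126, 45.4, 43.5 and 26.2 under S2101 and 42, 39.1 and 24.3 untreated. Its ratios lay on both sides of 1, from 0.859 to 1.11, and the fitted change was 0.04 ± 0.11 (adjusted p = 0.852). MVD, which acts on the product of PMVK, was at 1.62 ± 0.30, the isomerase IDI1 at 1.52 ± 0.31 and the farnesyl diphosphate synthase FDPS at 1.04 ± 0.18.

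The enzymes from squalene to cholesterol were higher as well, without exception in this list. FDFT1, the squalene synthase and the member with the lowest p, had 524, 421 and 391 CPM under GSK126 in MHCC97H, A549 and HCT116, 401, 338 and 248 under S2101 and 194, 129 and 104 untreated. The lowest treated library thus exceeded the highest untreated one, and the fitted change was 1.47 ± 0.18 (2.78-fold, adjusted p = 0.0518). FDFT1 passed in 11 of 19 alternative analyses, with adjusted p from 2.13e-11 in the most sensitive to 1 in the least. SQLE, the squalene epoxidase, stood at 1.37 ± 0.23, LSS, the lanosterol synthase, at 1.22 ± 0.28 and CYP51A1, the lanosterol demethylase, at 1.15 ± 0.24. MSMO1, the methylsterol monooxygenase, had 323, 308 and 196 CPM under GSK126, 223, 179 and 101 under S2101 and 127, 51.5 and 32.6 untreated. In each line its order was GSK126, S2101, untreated, and the fitted change was 1.81 ± 0.32 (adjusted p = 0.0702). TM7SF2, a sterol reductase, departed from that order: it had 7.32, 17.4 and 38.3 CPM under GSK126, 9.93, 27.6 and 28.9 under S2101 and 2.03, 4.31 and 13.6 untreated, so S2101 gave the higher level in MHCC97H and A549. Its change of 1.85 ± 0.26 (adjusted p = 0.0615) was the largest of the enzymes. NSDHL (0.66 ± 0.18) and EBP (0.59 ± 0.14) had the smallest changes after PMVK. HSD17B7 (1.27 ± 0.20) and the later enzymes SC5D (1.01 ± 0.20) and DHCR7 (1.50 ± 0.26) lay between.

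**Figure D2:**
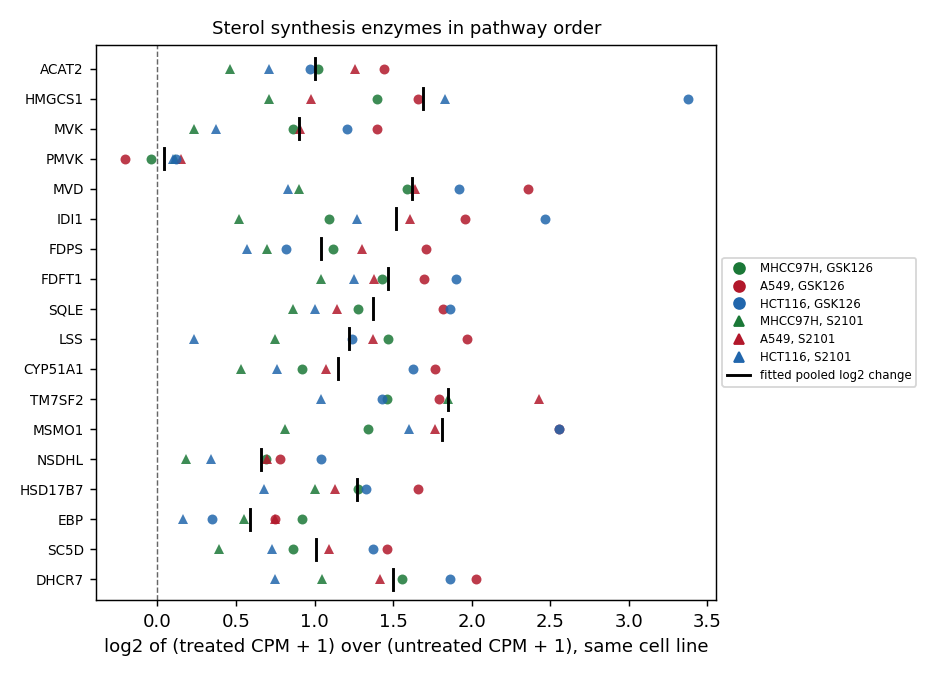
Rows are 18 of the 20 sterol synthesis enzymes in pathway order; the horizontal axis is the log2 ratio of treated to untreated CPM (plus 1) in the same cell line, circles stand for GSK126, triangles for S2101, colours for lines and black bars for the fitted pooled change. All points lie to the right of 0 in the 6 libraries, except those of PMVK, which straddle it.

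Among genes that sense, take up or export sterols, 8 of 16 were higher, 1 was lower, and the median fitted log2 change was 0.54. INSIG1, which retains SREBP and is itself an SREBP target, had 391, 398 and 312 CPM under GSK126 in MHCC97H, A549 and HCT116, 265, 244 and 105 under S2101 and 108, 58.7 and 38.6 untreated. All treated libraries but HCT116 under S2101 exceeded all untreated ones, and the fitted change was 2.14 ± 0.37 (4.41-fold, adjusted p = 0.0658). The transcription factor genes SREBF2 and SREBF1 differed in that SREBF2 was higher in all 6 libraries (0.89 ± 0.15, adjusted p = 0.0647) and SREBF1 was not (0.44 ± 0.28, adjusted p = 0.353, with 150 CPM under S2101 and 259 untreated in HCT116). STARD4, a sterol carrier, and NPC1, which exports cholesterol from lysosomes, stood at 1.19 ± 0.31 and 0.98 ± 0.25. The 1 lower member was ABCA1, the exporter of cholesterol to lipoproteins, with 42.8, 26 and 1.73 CPM under GSK126, 129, 23 and 1.61 under S2101 and 125, 47.5 and 3.28 untreated (-0.80 ± 0.29, adjusted p = 0.134). Its level under S2101 in MHCC97H matched the untreated one, and the other 5 treated libraries were lower.

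Fatty acid synthesis genes, further SREBP targets, were higher in 8 of 11 cases and lower in 0, with a median of 0.98. ACSS2, which makes acetyl-CoA from acetate, had 178, 169 and 133 CPM under GSK126 in MHCC97H, A549 and HCT116, 118, 71.7 and 65.9 under S2101 and 42.4, 17.3 and 26 untreated. Every treated library exceeded every untreated one, with a fitted change of 2.15 ± 0.36 (4.43-fold, adjusted p = 0.0647). SCD, the stearoyl-CoA desaturase, was the most abundant, with 1845, 5788 and 6163 CPM under GSK126, 1819, 3517 and 2301 under S2101 and 948, 1109 and 1407 untreated (1.51 ± 0.33). FASN, the fatty acid synthase, stood at 1.32 ± 0.26, the elongase ELOVL6 at 1.15 ± 0.25 and ACACA, the acetyl-CoA carboxylase, at 0.78 ± 0.12. LPCAT1, a phospholipid acyltransferase named for its low p, stood at 1.23 ± 0.16, and PLA2G4C, a phospholipase A2, at 1.94 ± 0.46.

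**Figure D3:**
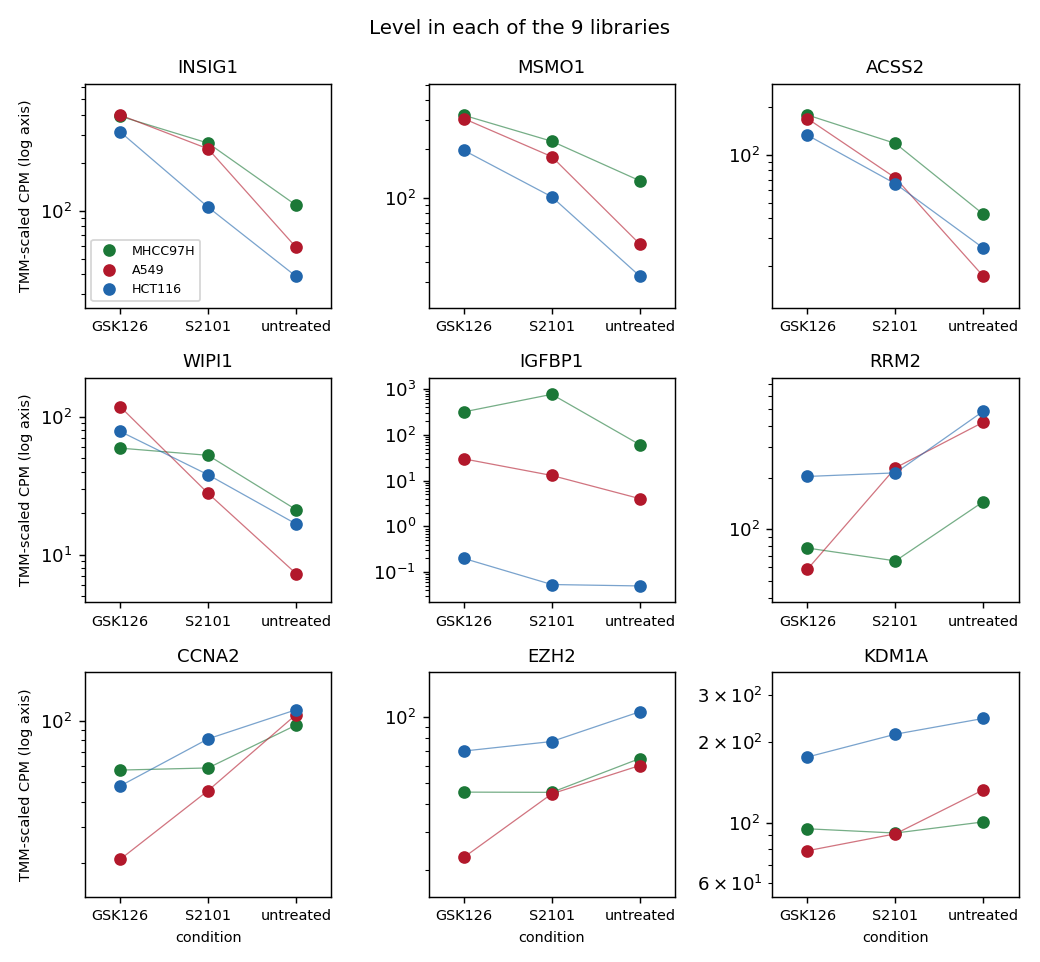
Each panel shows TMM-scaled CPM on a log axis for 1 gene in the 9 libraries, with 1 point per line under GSK126, S2101 and no treatment and lines joining the libraries of a cell line; a value of 0 (IGFBP1 in untreated HCT116) is drawn at the bottom of its axis. INSIG1, MSMO1, ACSS2 and WIPI1 decline from left to right in each line, and RRM2, CCNA2, EZH2 and KDM1A are highest without treatment in each line.

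Genes of DNA replication were lower throughout. Of 25 listed genes, 24 were lower at unadjusted p under 0.05 and 0 higher, all 25 were lower in all 6 treated libraries, and the median fitted log2 change was -0.89. The count was 25 without the A549 S2101 library, 25 without A549 and 16 without HCT116, and 19 passed an adjusted p of 0.05 with a term for each compound. By library the median log2 ratio was -0.58, -1.86 and -1.26 under GSK126 in MHCC97H, A549 and HCT116 and -0.74, -0.47 and -0.67 under S2101, so A549 under GSK126 stood far below the rest. RRM2, the small subunit of ribonucleotide reductase, had 77.7, 58.5 and 203 CPM under GSK126, 65.4, 228 and 213 under S2101 and 145, 421 and 488 untreated. The lines differed in level, but within each line both treated libraries were well below the untreated one (-1.28 ± 0.32, 0.413-fold, adjusted p = 0.0786). GINS2, a subunit of the replicative helicase, had 13.4, 12.8 and 20.8 CPM under GSK126, 14.6, 38.9 and 38.3 under S2101 and 32.2, 63.1 and 69.7 untreated (-1.24 ± 0.29). Of the other helicase and loading genes, MCM10 stood at -1.17 ± 0.37, MCM4 at -1.03 ± 0.35 and MCM6 at -0.94 ± 0.29. The sliding clamp PCNA had a smaller change (-0.71 ± 0.27), with 167, 109 and 119 CPM under GSK126, 154, 301 and 186 under S2101 and 226, 349 and 275 untreated. E2F1, the S-phase transcription factor, stood at -0.74 ± 0.33 and CCNE2, cyclin E2, at -1.11 ± 0.26. From the list of serine and one-carbon enzymes, 4 of 13 were lower and 0 higher (median -0.25, and 6 lower without the A549 S2101 library), led by the thymidylate synthase gene TYMS (-1.07 ± 0.24).

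Promoters of GINS2 and MCM6 are shown because they carry the words TTTCCCGC, TTTGGCGC or TTTGCCGC, forms of the E2F site, which appear in capitals here. GINS2 lies on the minus strand (chr16:85688955-85689204), and MCM6 likewise (chr2:135876444-135876693).
GINS2: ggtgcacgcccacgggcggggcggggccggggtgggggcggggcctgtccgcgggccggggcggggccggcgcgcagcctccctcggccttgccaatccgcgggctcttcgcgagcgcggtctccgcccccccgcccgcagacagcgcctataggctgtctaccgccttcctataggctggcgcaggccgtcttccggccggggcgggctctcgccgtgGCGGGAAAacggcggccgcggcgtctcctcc
MCM6: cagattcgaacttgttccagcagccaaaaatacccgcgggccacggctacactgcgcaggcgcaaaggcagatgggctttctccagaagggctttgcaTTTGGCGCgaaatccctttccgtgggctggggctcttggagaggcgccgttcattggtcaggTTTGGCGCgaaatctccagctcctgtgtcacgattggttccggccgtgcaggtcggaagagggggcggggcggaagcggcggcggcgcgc
The GINS2 match lies 31 bases before the start, and the MCM6 matches at 152 and 90. On both strands, 1 of these words was present for 10 of 21 replication genes (47.6%), 0 of 16 mitosis genes and 2.92% of all genes in the promoter table.

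Genes of mitosis were lower in all 20 of 20 cases at unadjusted p under 0.05, and all 20 were lower in each treated library, with a median of -0.87. The count was 20 without the A549 S2101 library and was 18 without A549. With a term for each compound 12 passed an adjusted p of 0.05, with summed treated counts 6, and in DESeq2 19. By library the median log2 ratio was -0.42, -2.03 and -0.87 under GSK126 in MHCC97H, A549 and HCT116 and -0.46, -1.09 and -0.37 under S2101, so that A549 was the lowest line under either compound. CCNA2, cyclin A2, had 57.1, 20.8 and 47.7 CPM under GSK126, 58.5, 45.3 and 81.3 under S2101 and 95, 107 and 113 untreated. No treated library reached the lowest untreated level (-1.09 ± 0.27, adjusted p = 0.0786). CDC20, the activator of the anaphase-promoting complex, had 61, 27.6 and 135 CPM under GSK126, 58.3, 64.6 and 191 under S2101 and 88.8, 170 and 245 untreated (-1.05 ± 0.30). PLK1, the Polo kinase, had the smallest p of the list (-1.0 ± 0.19, adjusted p = 0.0702). The kinesin KIF20A stood at -1.04 ± 0.29, TOP2A, a topoisomerase, at -0.86 ± 0.25, and MKI67, which encodes the proliferation antigen Ki-67, at -0.95 ± 0.27. The cell-cycle homology word TTTGAA was found on either strand for 8 of 16 mitosis genes (50%) and 1 of 21 replication genes (4.76%). Over all genes in the promoter table the share was 16.1%. The word is in capitals in the promoter of CDC20 (plus strand, chr1:43358731-43358980), 178 and 65 bases before the start.
CDC20: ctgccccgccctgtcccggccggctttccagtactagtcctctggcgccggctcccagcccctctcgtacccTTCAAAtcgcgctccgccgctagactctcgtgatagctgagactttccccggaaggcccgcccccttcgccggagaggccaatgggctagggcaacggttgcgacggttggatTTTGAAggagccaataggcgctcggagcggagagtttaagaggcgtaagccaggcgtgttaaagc

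**Figure D4:**
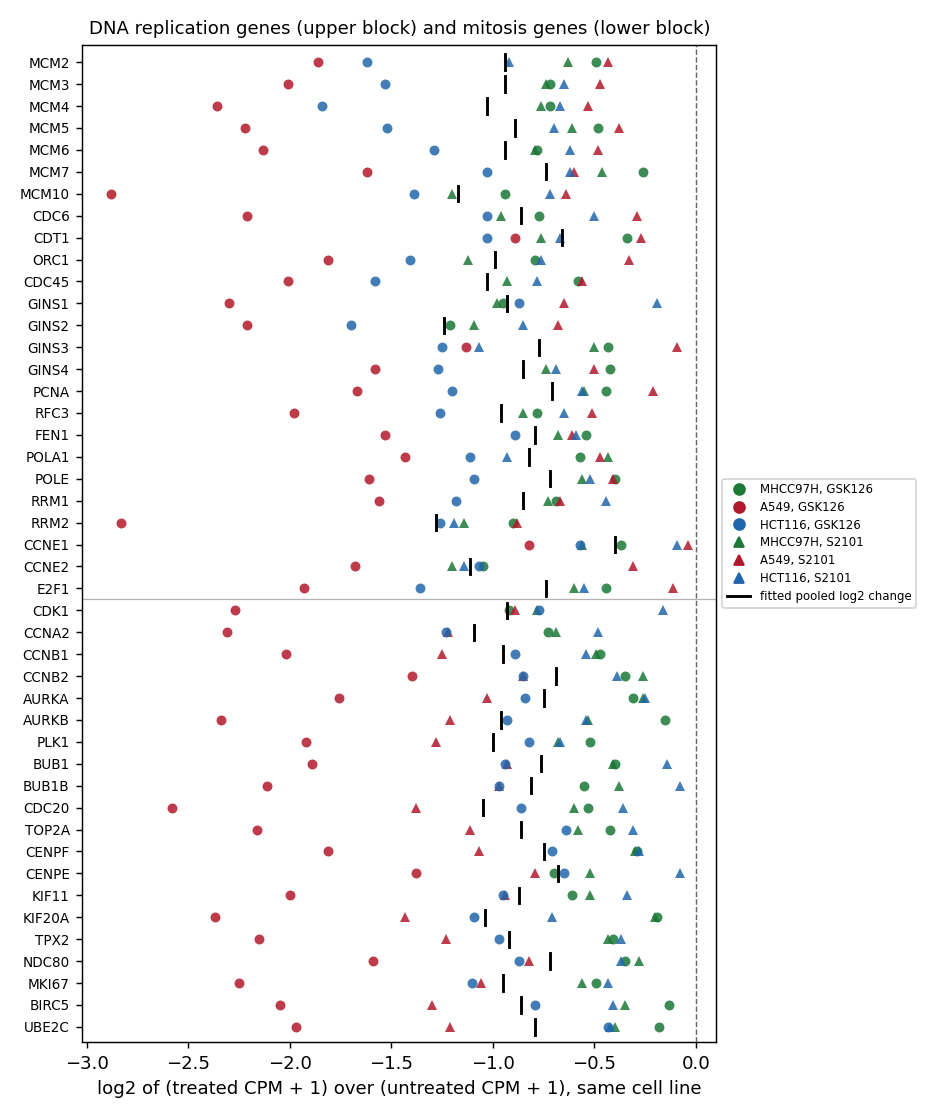
Rows are 25 DNA replication genes and, below the grey line, 20 mitosis genes; the horizontal axis is the log2 ratio of treated to untreated CPM (plus 1) in the same line, with circles for GSK126, triangles for S2101, colours for lines and black bars for the fitted pooled change. Every point lies left of 0, and A549 under GSK126 (red circles) lies farthest left for nearly every gene.

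The genes of the enzymes that the compounds inhibit were themselves lower. EZH2 had 45.5, 22.9 and 70.1 CPM under GSK126 in MHCC97H, A549 and HCT116, 45.4, 44.7 and 77.5 under S2101 and 64.8, 60.2 and 106 untreated. Both compounds gave lower levels than the untreated library in each line (-0.63 ± 0.18, 0.648-fold, adjusted p = 0.0891). KDM1A had 95.2, 78.9 and 176 CPM under GSK126, 91.8, 91.2 and 214 under S2101 and 101, 133 and 245 untreated (-0.37 ± 0.12, adjusted p = 0.11). RNA levels of an inhibited enzyme do not check that it was inhibited. Of 11 PRC2 genes, 5 were lower and 2 higher (median -0.30). EED, a core subunit, stood at -0.59 ± 0.17 and PHF19, an accessory subunit, at -0.75 ± 0.15, whereas PHF1, a related accessory subunit, was higher (0.66 ± 0.20), with 38.1, 26.8 and 47.9 CPM under GSK126, 32.1, 15 and 35.1 under S2101 and 25.7, 11.5 and 26 untreated. SUZ12, a core subunit, had -0.24 ± 0.13 and an unadjusted p of 0.0955. Of 12 genes of LSD1 complexes, 2 were lower and 0 higher, with a median of -0.05. The largest value in each direction belonged to PHF21A (0.47 ± 0.23) and RCOR2 (-0.39 ± 0.30), and neither reached an unadjusted p of 0.05.

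Among genes that PRC2 is known to silence, none was higher at unadjusted p under 0.05. Of 27 developmental regulators known as Polycomb targets, 20 were expressed enough to be tested, and 0 of them were higher and 2 lower (median -0.11, and 1 lower without the A549 S2101 library). CDKN2B, a cyclin-dependent kinase inhibitor, had 29.7, 0 and 25.5 CPM under GSK126 in MHCC97H, A549 and HCT116, 44.5, 0 and 6.99 under S2101 and 25, 0.133 and 5.26 untreated. It was higher in MHCC97H and HCT116 and near the floor in A549 (0.96 ± 0.50, unadjusted p = 0.083). HAND2, a heart developmental factor, had reads in A549 only, with 0.703 CPM under GSK126, 0.764 under S2101 and 1.19 untreated. Neuronal genes, which LSD1 complexes repress outside neurons, were higher in 8 of 21 cases and lower in 1, with a median fitted change of 0.67. Without the A549 S2101 library 18 were tested, of which 4 were higher and 1 lower. CHGA, chromogranin A, had 0.13, 3.45 and 0.0667 CPM under GSK126, 0.114, 5.92 and 0.161 under S2101 and 0, 0.597 and 0.0565 untreated, so its signal lay in A549 (2.78 ± 0.53, adjusted p = 0.0702). NEFH, a neurofilament gene, had 1.6 CPM under GSK126, 5.73 under S2101 and 0.464 untreated in A549 and at most 0.13 elsewhere. Both genes exceeded 1 CPM in treated A549 only, so they passed the filter on low counts through treated libraries. The count of higher members, the list median and the p of CHGA partly reflect that selection and are no support for an increase. The part of the TSA-like signal of the A549 S2101 library in these values was not tested.

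Several stress and catabolic lists held more higher than lower members. Of 25 lysosome and autophagy genes, 11 were higher and 0 lower (median 0.20, and 10 without the A549 S2101 library). WIPI1, which binds the phospholipid of forming autophagosomes, had 59.1, 118 and 78.1 CPM under GSK126 in MHCC97H, A549 and HCT116, 52.4, 27.8 and 37.9 under S2101 and 21.2, 7.3 and 16.7 untreated. All 6 treated libraries exceeded all 3 untreated ones (2.07 ± 0.51, 4.19-fold, adjusted p = 0.0786). The ATG8 family gene GABARAPL1 stood at 1.25 ± 0.35, NEU1, the lysosomal sialidase, at 1.30 ± 0.35, and the autophagy receptor SQSTM1 at 0.92 ± 0.31, with 1204 CPM under GSK126, 501 under S2101 and 250 untreated in HCT116. Of 22 p53 targets, 6 were higher and 3 lower (median 0.18). GDF15, a secreted stress factor, had 103, 152 and 370 CPM under GSK126, 212, 98.9 and 123 under S2101 and 51.2, 17.1 and 106 untreated (1.83 ± 0.44). CDKN1A, which encodes p21, had 76.4, 93.7 and 203 CPM under GSK126, 109, 70.7 and 170 under S2101 and 29.2, 42.5 and 139 untreated (0.98 ± 0.23, adjusted p = 0.0774). TP53INP1 stood at 1.70 ± 0.38 and BBC3, which encodes PUMA, at 1.46 ± 0.53.

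Of 16 genes of the unfolded protein response, 6 were higher and 0 lower (median 0.28), with DNAJB9, an endoplasmic reticulum cochaperone, at 1.31 ± 0.36 and the sensor ERN1 at 1.25 ± 0.44. Heat shock proteins went the other way, with 6 of 13 lower and 0 higher (median -0.29). HSPD1, the mitochondrial chaperonin, had 924, 729 and 759 CPM under GSK126 in MHCC97H, A549 and HCT116, 1024, 913 and 1170 under S2101 and 1418, 1377 and 1467 untreated. Every treated library lay below every untreated one (-0.63 ± 0.14, 0.645-fold, adjusted p = 0.0772), and HSP90AA1 stood at -0.63 ± 0.19. Of 17 genes of the ATF4 stress response, 1 was higher and 0 lower (3 higher without the A549 S2101 library). In MHCC97H, A549 and HCT116 the list's median log2 ratio was 0.32, 1.29 and 0.03 under GSK126 and 0.54, 0.48 and -0.82 under S2101, and differences between lines were not tested. The member that was higher, NUPR1, a stress-induced chromatin factor, had 1.36 ± 0.32, and ATF3 had 1.10 ± 0.54 (unadjusted p = 0.0683). Of 11 amino acid transporters 1 was higher, SLC38A2 (0.79 ± 0.30), and 2 lower, among them SLC7A5 (-0.58 ± 0.21), with a median of -0.02. NRF2 targets were higher in 4 of 19 cases and lower in 0 (median 0.25). The highest of them, FTH1, encodes ferritin heavy chain and had 2088, 1679 and 747 CPM under GSK126, S2101 and no treatment in HCT116, against 4013, 4271 and 3878 in MHCC97H. AKR1C1, at 0.49 ± 0.16, shares reads with near-identical relatives and is uncertain.

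Signalling and secreted-factor genes had some of the largest changes. Of 13 chemokine and NF-kB feedback genes, 8 were higher and 0 lower (median 1.38), yet only 3 were higher in all 6 treated libraries. CCL20, a chemokine for dendritic cells and lymphocytes, had 14.4, 4.28 and 0.4 CPM under GSK126 in MHCC97H, A549 and HCT116, 30.1, 0.509 and 0 under S2101 and 1.69, 0.133 and 0.0565 untreated. The fitted change of 3.68 ± 0.86 (adjusted p = 0.0775) rests on MHCC97H and A549, since HCT116 was at or near the floor. Untreated A549 was itself under the floor of 3 reads, so the size of its change is uncertain. Among untreated libraries CCL20 exceeded 1 CPM in MHCC97H alone, so it passed the filter through its treated libraries, and its change partly reflects that selection. IL8, a neutrophil chemokine, had 2.27, 35.3 and 40.9 CPM under GSK126, 3.12, 9.48 and 1.07 under S2101 and 1.76, 1.06 and 0.622 untreated (3.32 ± 1.27, adjusted p = 0.146). Immediate early genes were higher in 5 of 16 cases and lower in 0 (median 1.01, and 7 higher without the A549 S2101 library). NR4A2, an orphan nuclear receptor, had 2.92, 48.8 and 68.3 CPM under GSK126, 2.84, 6.17 and 10.3 under S2101 and 0.879, 2.79 and 11.7 untreated (2.25 ± 0.82), so that HCT116 under S2101 was not higher, and FOSB stood at 2.10 ± 0.79. Of 13 ERK feedback genes, 4 were higher and 0 lower (median 0.20), with the phosphatase genes DUSP5 at 1.21 ± 0.39 and DUSP4 at 1.15 ± 0.30. Aryl hydrocarbon receptor targets were higher in 5 of 9 cases and lower in 0 (median 0.41). CYP1A1, the classical target, had 13.4, 0.831 and 2.73 CPM under GSK126, 14.6, 3.25 and 1.13 under S2101 and 1.62, 0.863 and 1.07 untreated (1.83 ± 0.56), and AHRR, the receptor's repressor, stood at 0.90 ± 0.26.

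In the remaining lists, of 5 to 15 tested genes each, at most 5 members passed in either direction. Hypoxia response genes were higher in 3 of 11 cases and lower in 0 (median 0.48, and 5 higher without the A549 S2101 library), led by NDRG1 (1.02 ± 0.30) and the collagen prolyl hydroxylase P4HA1 (0.74 ± 0.32). Glycolysis genes were lower in 5 of 14 cases and higher in 0 (median -0.14), with PGAM1 at -0.60 ± 0.12 and HK2 at 0.63 ± 0.50 (unadjusted p = 0.239). Interferon-stimulated genes had 2 higher and 1 lower of 14 (median 0.34), OAS1 at 0.82 ± 0.20 and IFIT2 at 0.66 ± 0.27. YAP targets had 2 lower of 10 and 0 higher (median -0.29, and 1 lower without the A549 S2101 library). ANKRD1 stood at -1.45 ± 0.48, and CYR61, with 42.7, 27.5 and 16.2 CPM under GSK126, S2101 and no treatment in HCT116 but 7.48, 37.9 and 98.6 in A549, had -0.94 ± 0.63. TGF-beta and BMP response genes had 1 lower of 10, TGFBI (-0.49 ± 0.14), and 0 higher (median -0.11, and 2 lower without the A549 S2101 library). Epithelial and mesenchymal genes had 3 higher and 1 lower of 15 (median 0.28, and 0 lower without the A549 S2101 library), with the claudins CLDN3 at 1.44 ± 0.40 and CLDN4 at 0.93 ± 0.28. Of 5 metallothioneins tested, 0 were higher and 0 lower (median 0.30, MT1F 0.55 ± 0.46 and MT1X 0.40 ± 0.32). Of 9 nuclear and snoRNA-host non-coding RNAs, 3 were higher and 2 lower (median 0.36). The imprinted H19 had 333, 1.92 and 1.6 CPM under GSK126 in MHCC97H, A549 and HCT116, 395, 1.97 and 1.99 under S2101 and 559, 4.84 and 3.68 untreated (-0.92 ± 0.15, adjusted p = 0.0647). MEG3, also imprinted, stood at 0.85 ± 0.22 and MALAT1 at 0.79 ± 0.23.

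**Figure D5:**
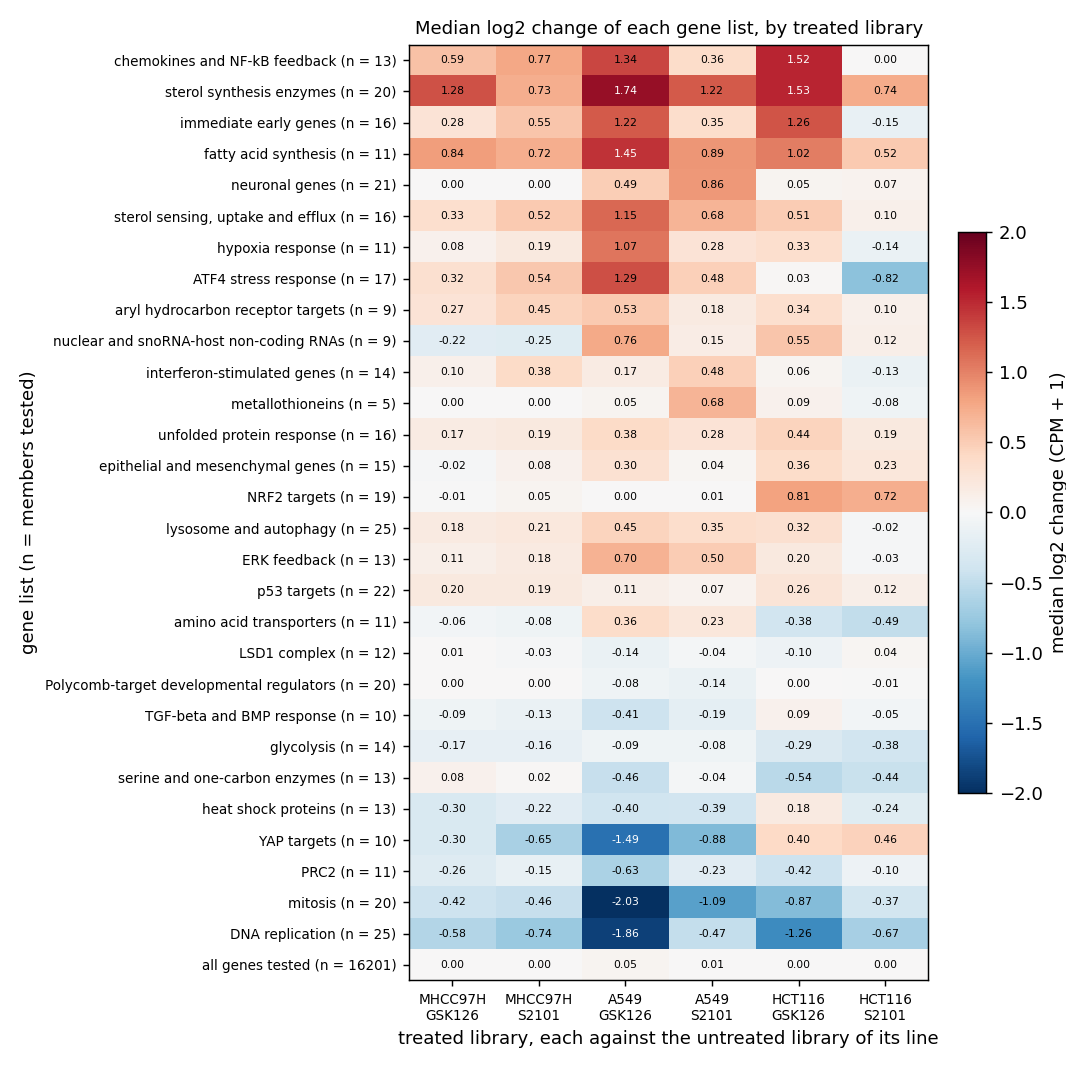
Each cell gives the median log2 ratio of treated to untreated CPM (plus 1) of 1 gene list (rows, with the number of members tested) in 1 treated library (columns), with colour from blue (lower) to red (higher). Sterol and fatty acid synthesis are above 0, and DNA replication and mitosis below 0, in all 6 columns. The median of NRF2 targets is 0.81 and 0.72 in HCT116 and -0.01 to 0.05 in the other lines, and that of YAP targets is above 0 in HCT116 and below 0 in the other lines.

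Genes chosen by size alone, after their values were seen, added a few more to those of the lists. IGFBP1, a secreted binding protein of insulin-like growth factors, had 319, 30 and 0.2 CPM under GSK126 in MHCC97H, A549 and HCT116, 772, 13 and 0.0537 under S2101 and 61.2, 4.05 and 0 untreated. Its higher levels lay in MHCC97H and A549 (2.84 ± 0.46, adjusted p = 0.0647). TCP11L2 stood at 2.53 ± 0.60 and SDK2, a synaptic adhesion gene, at 2.03 ± 0.34. Among the decreases, ALPK2, a kinase gene, stood at -1.62 ± 0.31, the small cytoplasmic RNA BCYRN1 at -1.17 ± 0.24, and the replication and repair genes EXO1 and DSCC1 at -1.20 ± 0.32 and -1.16 ± 0.29. The potassium channel gene KCNH1 was at -1.46 ± 0.46 on A549 levels of 2.94 CPM under GSK126, 9.87 under S2101 and 17.1 untreated. In the other lines it had at most 0.452 CPM. FBN2, fibrillin 2, was at -1.14 ± 0.25 on A549 levels of 50.9 CPM under GSK126, 78.2 under S2101 and 139 untreated. Some of the genes with the lowest p had moderate ratios that lay close together in the 6 libraries. ABCA3, a phospholipid transporter known from lung surfactant, had 5.57, 90 and 23.8 CPM under GSK126, 5.51, 72.3 and 22.6 under S2101 and 2.64, 37.5 and 8.82 untreated. Its ratios ran from 1.93- to 2.7-fold (1.20 ± 0.13, adjusted p = 0.0518). LGALS4, an intestinal galectin, had 399, 2.68 and 0.133 CPM under GSK126, 395, 2.04 and 0.215 under S2101 and 161, 0.597 and 0.0565 untreated (1.44 ± 0.18, adjusted p = 0.0518). Its ratios were wider, from 2.36- to 4.49-fold, and its HCT116 levels were at or near the floor of 3 reads. EXD3 stood at 1.26 ± 0.15 and TPCN1, a channel of endosomes and lysosomes, at 0.68 ± 0.10.

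The compounds, whose doses differed (50 µM GSK126 and 100 µM S2101), differed in the size of change for some gene lists. GSK126 over S2101, tested in 1 model with a term for each compound, called 0 of 16201 genes at adjusted p under 0.05 (0% in either direction). At an unadjusted p under 0.05, 786 genes were higher under GSK126 (4.85%) and 717 lower (4.43%), 9.28% together. Of the 20 sterol enzymes, 15 were higher under GSK126 at that level and 0 lower, and the median log2 difference was 0.63. For INSIG1 the difference was 0.96 (95% interval 0.45 to 1.47) and for ACSS2 0.97 (0.51 to 1.42). For TM7SF2 the interval spanned 0 (-0.84 to 0.32). Of 25 replication genes 12 were lower under GSK126 and 0 higher (median difference -0.62), as for GINS2 (-0.87, interval -1.39 to -0.34). Of 20 mitosis genes 5 were lower and 0 higher (median -0.43). In MHCC97H the median log2 ratios to untreated were not lower under GSK126. They were -0.58 under GSK126 and -0.74 under S2101 for replication, and -0.42 and -0.46 for mitosis. The differences lay in A549 (replication -1.86 and -0.47, mitosis -2.03 and -1.09) and HCT116 (-1.26 and -0.67, -0.87 and -0.37). NR4A2 had 1 of the larger differences (2.19, interval 1.04 to 3.34). For IGFBP1 the interval ran from -1.21 to 0.90 and for CDKN1A from -0.56 to 0.59, so differences of either sign within these bounds remain possible.

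Set against TSA in a model of all 12 libraries, the mean of GSK126 and S2101 was higher for 2905 of 16929 genes (17.2%) and lower for 3334 (19.7%) at adjusted p under 0.05. Of the 20 sterol enzymes, 10 were higher under GSK126 and S2101 than under TSA and 2 lower, with a median log2 difference of 0.71. Fatty acid synthesis had 7 higher and 0 lower of 11. The list of sterol sensing, uptake and efflux was mixed, with 4 higher and 6 lower of 16 (median -0.30). In it SREBF1 was lower than under TSA (-2.38 ± 0.52, adjusted p = 0.00763), and INSIG1 stood at -1.46 ± 0.56 (adjusted p = 0.0651). MSMO1 was higher by 1.76 ± 0.27 (adjusted p = 0.00184), while TM7SF2 was lower than under TSA (-1.69 ± 0.43, adjusted p = 0.0146) and so was PMVK (-0.83 ± 0.12, adjusted p = 0.00173). IGFBP1 was higher than under TSA by 6.72 ± 0.64 (adjusted p = 0.000473). Of 22 neuronal genes tested, 16 were lower than under TSA and 0 higher (median -2.51), and of 6 metallothioneins all 6 were lower (median -3.56), with MT1X at -4.79 ± 0.81 (adjusted p = 0.00267). Replication genes had 3 higher and 1 lower of 25. CDKN1A was lower than under TSA (-2.01 ± 0.35, adjusted p = 0.0029). Without 1 cell line the total of 6239 called genes was 1442 to 6702, and without the block 578.

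By the mean of both compounds, 80 to 544 more genes per line were detected than without treatment, and few genes passed a stricter rule for being switched on. At 1 CPM of the library total, 13395, 14082 and 13859 genes were detected under GSK126 in MHCC97H, A549 and HCT116, 13287, 14133 and 14009 under S2101 and 13099, 13564 and 13854 without treatment. The mean gain was 288.5 ± 235.2 genes per line (SD, n = 3), and an exact 2-sided sign-flip permutation test over lines gave p = 0.25, the smallest that 3 lines allow. Genes under 0.1 CPM untreated that reached 1 CPM under both compounds in a line were 0 in MHCC97H, 8 of them in A549 and 2 of them in HCT116, and the reverse was seen for 0 genes. The A549 count needs the S2101 library that stood apart for genes induced by TSA, and under GSK126 alone 2 genes passed in MHCC97H, 19 in A549 and 8 in HCT116. In HCT116, THSD7A, a membrane protein gene, had 0 reads untreated and 2.56 and 1.01 CPM of the library total under GSK126 and S2101. In A549, which had 1 read of each when untreated, SLCO4C1, an organic anion transporter, reached 8.5 and 1.71 CPM, AGTR1, the angiotensin II receptor, 2.64 and 1.05 CPM, KCP, a BMP-binding protein, 3.03 and 1.84 CPM, and NGFR, the neurotrophin receptor, 2.38 and 11.8 CPM. Of the 8 genes in A549, NGFR, ELAVL3, KCNN2 and C14orf37 had 138, 39.9, 38.4 and 28.2 CPM in that line under TSA, and the other 4 had 1.08 to 4.86 CPM. The part of the TSA-like signal of the A549 S2101 library in this count was not tested. In HCT116, NGFR was lower instead, with 4.56 CPM under GSK126, 8.94 under S2101 and 16.9 untreated.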

How the data were processed

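The deposited tables, 1 for each library, list raw counts of reads by gene symbol, per the file headers. They also list RPKM values made by the authors, per the file headers, which were not tested. Builds GRCh38 and hg38 come from the submitters' processing notes, and the sources used here name neither aligner nor counter nor strand setting. Overlapping and antisense genes and close paralogs are therefore uncertain. Of 25648 genes, the 25647 present in all 12 tables were used, and 1 entry naming no gene, in 11 tables, was left out. Depth ran from 14468304 to 19061367 counts.

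The pooled test was edgeR 4.0.16 (R 4.3.3), a quasi-likelihood F test with TMM scaling (0.923 to 1.1), filterByExpr and Benjamini-Hochberg adjustment over 16201 genes, with terms for cell line and treated or untreated and 5 residual degrees of freedom. Each line gave 1 library per condition, so the line pairs treated with untreated libraries, per the labels. The p-values measure spread between compounds and lines, not between repeat cultures. The 11 to 113 chi-square per gene between libraries of 1 line showed no pair within sampling noise. The code was tested on simulated data. CPM were scaled by TMM, except for detection, which used library totals, and log2 ratios within a line used a pseudocount of 1. The alternatives varied scaling (RLE), filter, block, treated group, libraries and tool (DESeq2 1.42.0).

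Members, gene lists (29 lists, 451 genes) and tests were chosen with earlier results of these data known. The rule for named genes took the 12 largest called increases and decreases, EZH2 and KDM1A, per list as many as 4 called members or else the 2 largest, and up to 5 genes switched on. Since none was called, the counts at unadjusted p, the genes named for size or low p, the sterol list and other genes named in the text were added after their values were seen. Promoters and coordinates are from RefSeq (GRCh38.p14), which matched 24952 genes (97.3%). Some members of the sterol and one-carbon lists are counted but not reported here by name.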

Additional observations from a re-analysis of the deposited data

Results flagged for a closer look

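Of 138 named genes checked, 9 had 1 treated library far from the other 5 in its log2 ratio to the untreated library of its line, and chance flags about 1 in 20. For 7 of them the library was A549 under GSK126: RRM2 (-2.83, next -1.26), MCM10 (-2.88, next -1.39), EXO1 (-2.59, next -1.28), MKI67 (-2.25, next -1.10), KCNH1 (-2.20, next -0.74), EZH2 (-1.36, next -0.60) and RTKN2 (-1.05, next -0.85). In the other two, MT1F stood at 1.21 in A549 under S2101 (next 0.38) and SQSTM1 at 2.27 in HCT116 under GSK126 (next 1.00). Without the A549 GSK126 library, 24 of 25 replication genes and 20 of 20 mitosis genes were lower at unadjusted p under 0.05.

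For 9 genes, both treated libraries of 1 line lay above its untreated library and both of another lay below, by any amount, and these differences were not tested. As differences of the lines' mean log2 ratios, CDKN2B differed by 0.70 between MHCC97H and A549 and by -1.40 between A549 and HCT116, but its A549 levels of 0 CPM under either compound and 0.133 CPM untreated lie under the floor of 3 reads. HK2 differed by 0.65 between MHCC97H and HCT116 and by 1.68 between A549 and HCT116. MT1F differed by 0.87 between A549 and HCT116. ANKRD1 differed by -0.95 between MHCC97H and HCT116 and by -1.81 between A549 and HCT116, with HCT116 near the floor at 0.133 CPM under GSK126, 0.215 under S2101 and 0.113 untreated. CYR61 differed by -2.08 between MHCC97H and HCT116 and by -3.50 between A549 and HCT116. NGFR differed by 3.84 between A549 and HCT116. KCP differed by 1.59 between MHCC97H and HCT116 and by 1.87 between A549 and HCT116. SLCO4C1 differed by -2.49 between MHCC97H and A549 and by -0.52 between MHCC97H and HCT116, with MHCC97H near the floor at 0.0648 CPM under GSK126, 0.0568 under S2101 and 0.27 untreated. GPR110 differed by 1.14 between MHCC97H and A549 and by -1.32 between A549 and HCT116, with A549 under the floor at 0.128, 0.127 and 0.133 CPM.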

How the results depend on the processing

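Against 0 genes higher and 0 lower in the pooled test, calls numbered 4 higher with RLE size factors, 41 and 8 without a filter, 7 higher with at least 5 CPM in 3 libraries, 518 and 354 with treated libraries summed, 510 and 615 with a term per compound (0 and 0 with that term over 12 libraries), 304 and 130 with S2101 left out, 22 and 3 with GSK126 left out, and 897 and 929 in DESeq2. Leaving out a library or line gave 0 to 252 higher and 0 to 266 lower, with 252 and 266 without A549 GSK126, 161 and 93 without A549 S2101, and 20 and 1 without HCT116 S2101. At unadjusted p under 0.05, 2132 and 1970 became 299 and 389 without the replicate block and 1010 higher with a term per compound over 12 libraries. They ran from 1162 (without MHCC97H) to 2367 and from 1284 (without A549) to 2061 with libraries left out.

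GSK126 over S2101 gave 1 call without a filter and 0 without each line. The 6239 genes apart from TSA became 578 without the replicate block, 2123 without MHCC97H and 1442 without A549, in a range of 1442 to 6702. The detection gain was 161.0 to 392.8. Sterol enzymes stayed at 19 throughout the omissions, replication genes ran from 16 to 25 and mitosis genes from 18 to 20. Without the block the counts were 15 sterol enzymes, 15 replication genes and 12 mitosis genes. Of 2588 alternative values for 138 genes, 2013 kept side and direction, 564 passed the threshold that the pooled test missed, and 11 turned round. These were RCOR2 (0.10 without HCT116, omissions -0.75 to 0.10), HK2 (-0.02 without A549, omissions -0.02 to 1.49), MT1F (-0.13 without A549, omissions -0.13 to 1.25), AGTR1 (-0.02 without the block, -0.07 without A549, omissions -0.07 to 4.39), NGFR (-0.26 without the block, -0.12 without S2101, -1.26 without A549, -0.25 without A549 S2101, omissions -1.26 to 5.44) and PMVK (-0.03 without S2101, 0.00 without A549 S2101, omissions 0.00 to 0.10). The causes were not tested.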

Other observations

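Some genes, picked for it after their values were seen, shared an order of libraries: all 6 treated above untreated, GSK126 highest in MHCC97H and S2101 highest in A549 and HCT116. Of 16201 genes tested, 2045 were higher in all 6 treated libraries and 119 had this order, 2 of them members of the lists (FTL and CHGA). How common the other orders of the compounds were is not given here, so the order is not shown to be unusual. AQP2, a water channel of the kidney collecting duct, had 65.4, 11.3 and 25.5 CPM under GSK126 in MHCC97H, A549 and HCT116, 26.2, 18.5 and 38 under S2101 and 8.11, 5.77 and 7.41 untreated. MGC50722 had 242, 38.8 and 96.8 CPM under GSK126, 90.6, 60.3 and 133 under S2101 and 33, 14.3 and 26.5 untreated. SPIC, an ETS-family transcription factor, had 32.3, 6.71 and 12.1 CPM under GSK126, 11.6, 8.97 and 16.4 under S2101 and 3.65, 2.99 and 4.07 untreated. ZCWPW2, GPR171 and IGFBP5, a binding protein of insulin-like growth factors, had that order too, with fitted log2 changes of 1.63 ± 0.29, 1.59 ± 0.38 and 1.78 ± 0.34. RARB, a retinoic acid receptor, had 177, 72.9 and 49.6 CPM under GSK126, 84.9, 68.6 and 68.7 under S2101 and 33.9, 32.7 and 18.9 untreated, so that A549 departed from it.

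Summed over 7 genes, markers of intestinal epithelium came to 2515, 31.2 and 298 CPM under GSK126 in MHCC97H, A549 and HCT116, 3005, 29.8 and 240 under S2101 and 1438, 14.2 and 232 untreated. In HCT116, EPCAM made up nearly all of the sum, with 285 CPM under GSK126, 228 under S2101 and 220 untreated. In MHCC97H, KRT20 made up most of the sum, with 1945 CPM under GSK126, 2414 under S2101 and 1118 untreated (fitted log2 change 0.83, adjusted p = 0.0869 in edgeR's quasi-likelihood test). CDH17, an intestinal cadherin, was nearly level there, with 128 CPM under GSK126, 135 under S2101 and 129 untreated, and had 23.6, 23.1 and 9.29 CPM in A549. VIL1, villin, had 34.8, 54.8 and 26 CPM in MHCC97H (unadjusted p = 0.0829 in that test over all lines), and CDX2, an intestinal transcription factor, had 7.58, 5.45 and 3.99 CPM (unadjusted p = 0.39). CDX1 was at 0 in all 9 libraries.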
